A study of Mus musculus with 56 samples.

Results

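The 9 genes described here mark macrophages in general and were followed across all groups of the study: Adgre1, Mrc1, Csf1r, Cx3cr1, Mpeg1, Ctss, Lyz2, Ms4a7 and Fcgr1. They were taken by name, and all 9 were among the 14871 rows of the deposited table and passed the filter on low values that left 13017 genes for testing. The samples were 56 RNA libraries of mouse tibialis anterior, the fast shin muscle. Muscles were wild type (WT), or homozygous (HOM) or heterozygous (HET) for titin mKO, an allele of the giant sarcomere protein titin made for mechanical knockout: it carries a site for the tobacco etch virus (TEV) protease, so that the protease severs titin. Muscles were given saline (NaCl) or a vector of the adeno-associated type (AAV) that carried TEV protease fused to GFP, and taken 3, 7 or 21 days later. Libraries with saline and with AAV numbered 3 and 5 for WT at day 3, 3 and 4 for WT at day 7, 4 and 4 for WT at day 21, 4 and 4 for HOM at day 3, 4 and 5 for HOM at day 7 and 4 and 4 for HOM at day 21. HET muscle was taken at day 7 only, with 4 libraries of each kind. Every AAV group, WT included, received the virus, the GFP and the protease together, and all saline groups were injected too, so no comparison here separates the vector from its protein. The promoter of the transgene and the age of the mice were not given in the sources used here. The labels number the samples without tying them to animals, so the p-values measure the spread between these samples, which may in part be technical.

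Macrophages in muscle come from resident cells and from blood monocytes that enter injured tissue, clear debris and feed the repair of fibres. They depend on the growth factor receptor encoded by Csf1r, follow the membrane-bound chemokine that Cx3cr1 recognises, and carry surface receptors such as the adhesion receptor of Adgre1, the mannose receptor of Mrc1, the high-affinity IgG receptor of Fcgr1 and the four-pass membrane protein of Ms4a7. Their killing and digesting machinery includes the pore-forming protein of Mpeg1, the lysosomal protease cathepsin S of Ctss and the lysozyme of Lyz2. In whole muscle RNA a higher marker level can come, among other sources, from more macrophages or from more of that RNA per macrophage. Other cells and the share of muscle fibre RNA can also bear on it. These sources cannot be told apart here.

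On the mouse build GRCm38 positions come from the GENCODE M21 annotation, and only Mpeg1 with Ms4a7 and Ctss with Fcgr1 share a chromosome. The chemokine receptor gene Cx3cr1 spans chr9:119901616-120069879 on the minus strand. Among the surface receptors, Adgre1 lies at chr17:57358691-57483527 (plus), Mrc1 at chr2:14229392-14332057 (plus), Fcgr1 at chr3:96282909-96293969 (minus) and Ms4a7 at chr19:11321039-11336146 (minus). Of the effector genes, Mpeg1 lies at chr19:12460779-12465283 (plus), Ctss at chr3:95526786-95556403 (plus) and Lyz2 at chr10:117277331-117282321 (minus). Each value below is a sum over a whole protein-coding gene. Lyz2 has a near-identical neighbour, Lyz1, and how reads were split between them is uncertain.

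The 250 bases upstream of a start site were read from RefSeq (build GRCm38.p6) for 7 of the 9 genes, because the genes moved together and the myeloid factor PU.1 (gene Spi1) is known for binding at macrophage promoters. The letters GAGGAA, the core of its site, were searched on both strands and stand in capitals below, as TTCCTC where they lie on the other strand. They occurred in Mrc1 (3 times), Ctss (once) and Fcgr1 (once), so in 3 of 7 genes, and in 23.4% of all 32536 RefSeq windows of the same length. Here and below the counts are per gene and the percentages per window. Ms4a7 had more windows than the other genes, with 0 matches to GAGGAA in each. Mpeg1, which had 0 matches, is shown for comparison.
Mrc1, chr2:14229164-14229413, plus strand: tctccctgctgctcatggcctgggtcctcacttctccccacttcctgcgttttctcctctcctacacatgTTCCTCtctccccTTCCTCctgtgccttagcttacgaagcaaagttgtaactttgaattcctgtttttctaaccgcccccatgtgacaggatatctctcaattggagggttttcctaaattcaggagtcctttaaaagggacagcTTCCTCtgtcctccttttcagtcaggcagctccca
Ctss, chr3:95526536-95526785, plus strand: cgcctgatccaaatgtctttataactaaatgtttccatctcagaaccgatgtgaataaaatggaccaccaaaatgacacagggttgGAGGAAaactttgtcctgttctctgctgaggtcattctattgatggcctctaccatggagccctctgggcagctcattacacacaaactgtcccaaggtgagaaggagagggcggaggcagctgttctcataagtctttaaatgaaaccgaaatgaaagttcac
Fcgr1, chr3:96293970-96294219, minus strand: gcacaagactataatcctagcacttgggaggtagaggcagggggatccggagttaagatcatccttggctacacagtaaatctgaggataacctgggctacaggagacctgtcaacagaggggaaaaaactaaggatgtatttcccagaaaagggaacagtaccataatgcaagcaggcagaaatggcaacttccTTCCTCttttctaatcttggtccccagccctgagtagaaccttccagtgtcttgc
Mpeg1, chr19:12460520-12460769, plus strand: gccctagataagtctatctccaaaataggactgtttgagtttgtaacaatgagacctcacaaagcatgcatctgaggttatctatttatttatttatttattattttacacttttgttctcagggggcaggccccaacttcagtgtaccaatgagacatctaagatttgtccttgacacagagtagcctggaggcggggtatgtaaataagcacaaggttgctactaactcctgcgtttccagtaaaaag
The letters GAAANNGAAA, the element bound by interferon regulatory factors, occurred in Ctss alone among the 7 genes, near the 3′ end of its window, and in 2.98% of all windows. The C/EBP letters TTNNGNAA occurred in Mrc1, Lyz2 and Ms4a7, and in 36.8% of all windows. These matches describe the letters in the windows, and no binding was measured.

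Library depth was 6.9 to 27.18 M reads (median 21.69 M), with the lowest in HOM AAV day 7 replicate 2 and the next at 14.98 M. Values are the deposited normalised read counts, in which 1 read is worth 0.032 to 0.0632 units in 55 libraries and 0.122 in HOM AAV day 7 replicate 2, and 99.999% of them converted back to whole reads within 0.02 reads. A gene with 0 reads stands slightly above 0 in the table, as Fcgr1 does at 0.0249 in WT saline day 7 replicate 1 and Ms4a7 at 0.0262 in HET saline day 7 replicate 2. The 9 genes of a fast fibre list summed to between 56400 and 159497 normalised reads per library. The transgene had at most 6 reads in any saline library and at least 56 in any AAV library, so no library went against its treatment label. Several libraries stood apart for the markers as a block. WT AAV day 3 replicate 3 was the highest of its group for 9 of 9 genes, HOM AAV day 3 replicate 4 and WT AAV day 21 replicate 2 were the lowest of theirs for 9 of 9, WT AAV day 7 replicate 1 was the highest of its group for 9 of 9, and HOM AAV day 21 held both the highest (replicate 1) and the lowest (replicate 4) for 9 of 9. The AAV minus saline changes are also given without them, while levels per kb, ratios and counts over gene lists are given with all libraries.

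Without virus the 9 markers sat low in every genotype and at every day. Lyz2 was the most abundant, with group means from 24.2 ± 7.85 (SD, n = 4) in HOM saline at day 21 to 46.2 ± 18.9 (SD, n = 4) in HOM saline at day 3. Fcgr1 had 0 to 14 reads in any saline library, Cx3cr1 2 to 32 and Ms4a7 0 to 20, so the levels of these 3 genes without virus rest on few reads. Their saline group means were at most 0.887 (Cx3cr1 in HOM at day 3), below the filter of 1 CPM averaged over all libraries. They passed it only through AAV groups in which they were high. For these 3 genes the AAV against saline calls below are thus in part set by the filter, also within each 9 of 9. Against WT saline, 0 of 9 markers were called in HOM saline at day 3, 7 or 21, where 1.71%, 1.63% and 2.6% of all genes tested were called higher. The same held for HET against WT saline at day 7 (0 of 9, background 0.131%) and for HOM against HET saline at day 7 (0 of 9, background 3.59%). Between days, 0 of 9 were called in HOM saline (background 0% for day 7 against 3 and 0.00768% for day 21 against 7) or in WT saline (0% for both). In these saline comparisons limma also gave no marker an unadjusted p under 0.05, and edgeR and DESeq2 on the recovered reads called 0. No shift of these markers with the titin allele alone was detectable at this depth. Between genotypes the widest of these ranges was that of HOM minus WT saline at day 3, from -0.13 to 0.68 on the log2 scale, and between days that of HOM saline at day 21 minus day 7, from -0.80 to 0.10. The 95% interval of the 0.68, that of Adgre1, was -0.10 to 1.45, so a shift of that size was not excluded. In the same comparison Mpeg1 had no overlap (5.54 to 10.5 in HOM, 4.49 to 5.28 in WT), with an unadjusted p of 0.329 (limma). Some markers also had none between days of WT saline. The share of all genes without overlap was not counted for saline, so these separations are not read as differences.

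**Figure D1:**
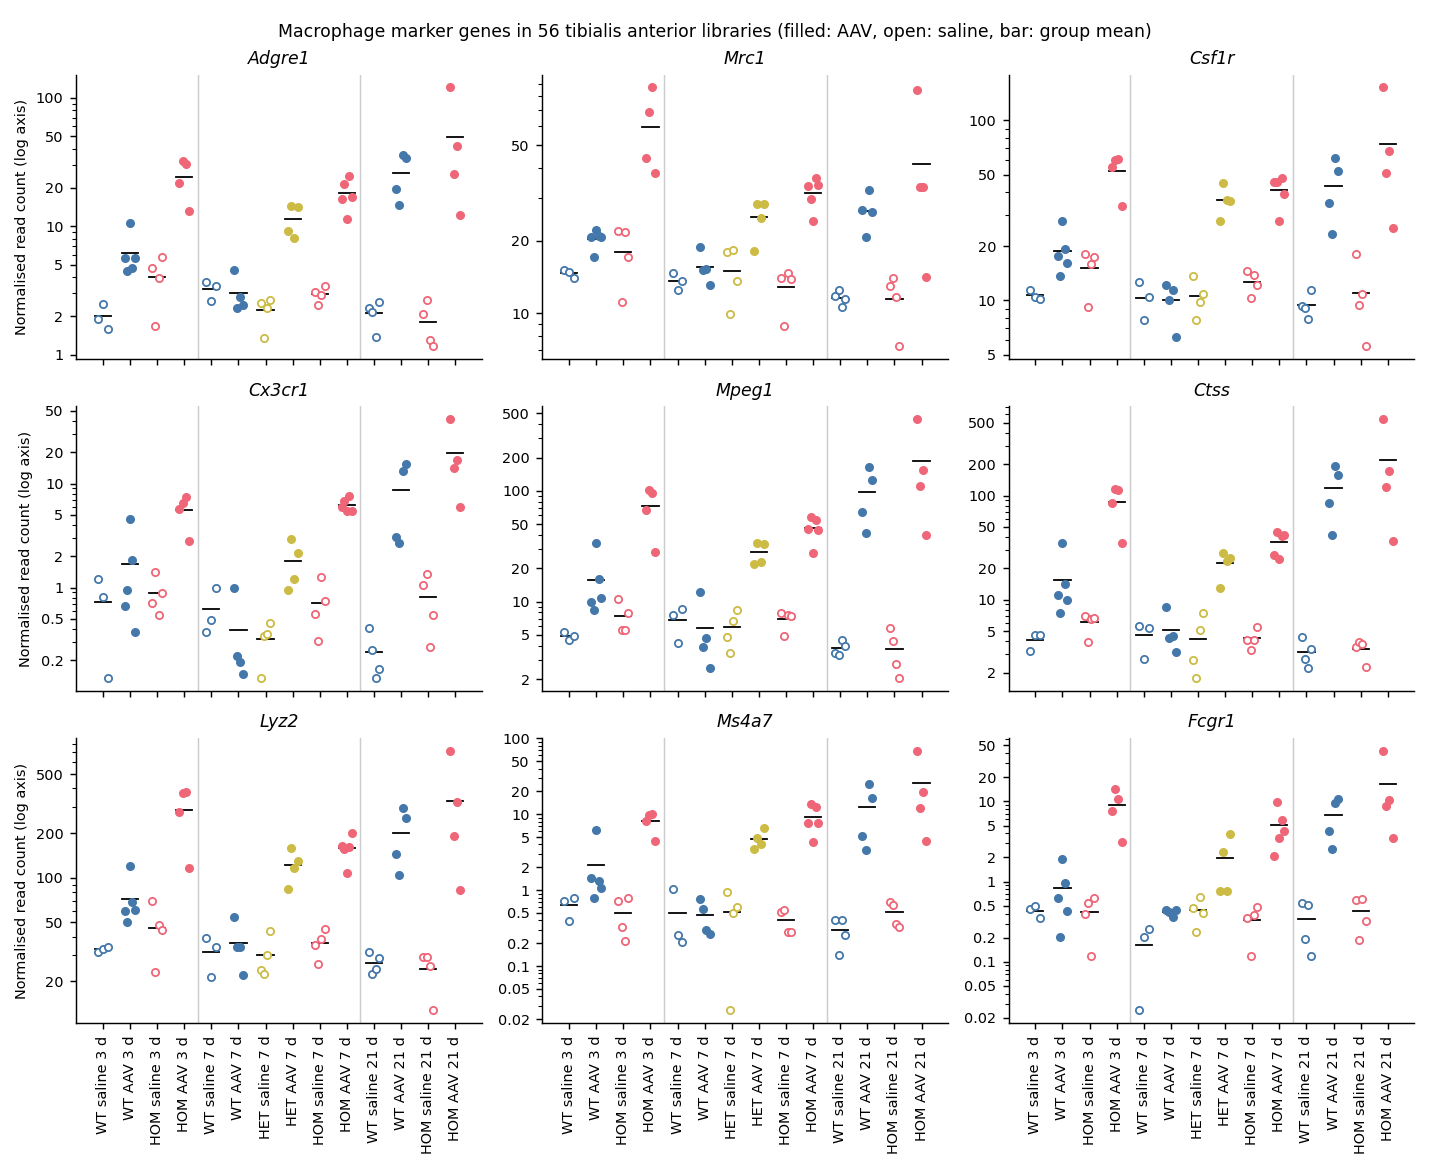
Normalised read count (log axis) of each marker in every library, by group, with day 3, 7 and 21 separated by grey lines. Filled points are AAV libraries, open points saline libraries and bars group means, in blue for WT, yellow for HET and red for HOM. Saline groups and the WT AAV group at day 7 sit low, and HOM AAV day 21 spans 36.8 to 538 for Ctss.

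Levels can be compared between genes once divided by exon length, and the order of the markers then differed between saline muscle and AAV muscle at day 21. In HOM saline at day 7, Lyz2 led with 27.6 ± 5.97 normalised reads per kb of exon sequence, ahead of Ctss at 3.13 ± 0.679, Csf1r at 2.21 ± 0.332, Mrc1 at 2.02 ± 0.422, Mpeg1 at 1.61 ± 0.326 and Adgre1 at 0.92 ± 0.126 (SD, n = 4). Cx3cr1 (0.159), Fcgr1 (0.129) and Ms4a7 (0.0914) were the lowest per kb. In HOM AAV at day 21 the order on the same scale was Lyz2 at 249.6 ± 209, Ctss at 159.7 ± 163, Mpeg1 at 43.1 ± 40.7, Adgre1 at 15.4 ± 15 and Csf1r at 12.8 ± 9.52 (SD, n = 4), with Mrc1 at 6.53, Fcgr1 at 6.29, Ms4a7 at 5.85 and Cx3cr1 at 4.35. In this pair of groups Mpeg1 and Adgre1 stood above Csf1r and Mrc1 with virus at day 21 and below them with saline at day 7. In saline at day 21 they also stood below, in HOM and in WT, while in the AAV groups at day 3 and day 7 Adgre1 stood below Csf1r. In WT AAV at day 7 both Mpeg1 (1.345) and Adgre1 (0.937) stood below Csf1r (1.735) and Mrc1 (2.438). The SDs of neighbours in this order overlap widely in the AAV group.

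**Figure D2:**
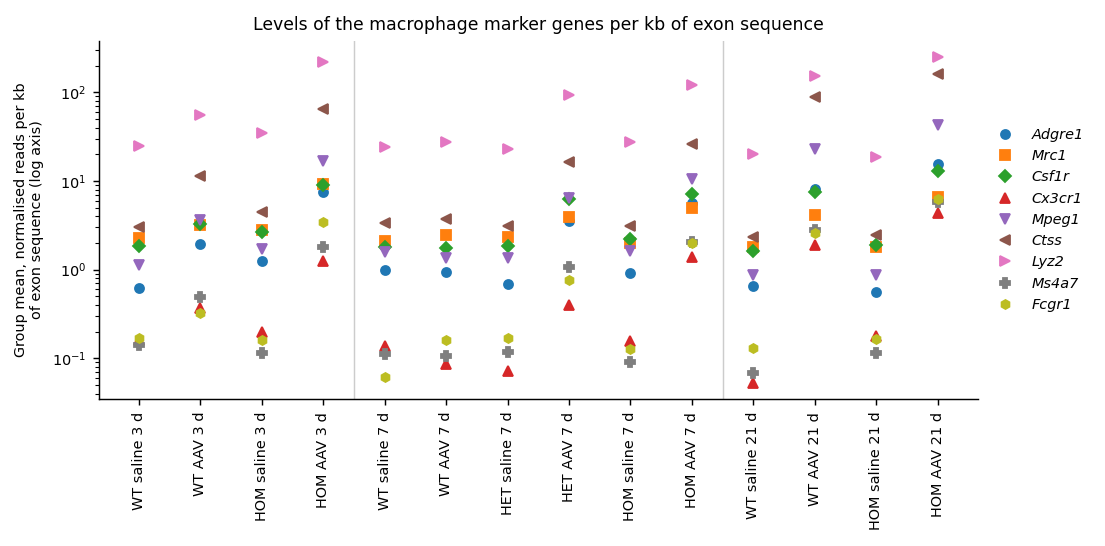
Group means per kb of exon sequence (log axis) for the 9 markers in the 14 groups. Lyz2 is the highest in each group and Ctss second, while Mpeg1 and Adgre1 lie below Mrc1 and Csf1r in saline groups and above them in both AAV groups at day 21.

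In HOM muscle 3 days after the virus, all 9 markers were called higher than with saline (limma, adjusted p from 1.35e-07 to 0.000391), against 17.4% of all genes. The ranges of AAV and saline libraries did not overlap for 9 of 9, against 14.3% of all genes. The lysosomal protease Ctss read 6.99, 3.90, 6.59 and 6.69 with saline and 85.5, 116, 114 and 34.9 with AAV. Every AAV library was several times above every saline library, and replicate 4 was the lowest of the AAV group. Its log2 change was 3.54 ± 0.46 (SE), the largest of the 9. The adhesion receptor gene Adgre1 read 4.72, 1.66, 3.93 and 5.78 with saline and 21.9, 31.9, 30.5 and 13.2 with AAV, a change of 2.34 ± 0.36. The mannose receptor gene Mrc1, often used as a marker of reparative and resident macrophages, read 21.9, 11.1, 21.8 and 17.2 with saline and 44.2, 68.7, 86.8 and 38.25 with AAV. Its change, 1.64 ± 0.27, was the smallest of the 9, although its AAV mean of 59.5 was its highest in any group. The IgG receptor gene Fcgr1 went from 2 to 12 reads per saline library to 49 to 286 reads per AAV library, and its mean rose 21.6-fold, from 0.418 ± 0.22 to 9.01 ± 4.81 (SD, n = 4). The remaining changes were 1.73 ± 0.31 for Csf1r, 1.76 ± 0.39 for Cx3cr1, 3.03 ± 0.44 for Mpeg1, 2.57 ± 0.39 for Lyz2 and 2.56 ± 0.44 for Ms4a7. These changes are on the log2(normalised read count + 1) scale, which understates the change of low genes such as Fcgr1. Their median was 2.56, beside -0.01 for all genes. Without replicate 4 of the AAV group they ran from 1.82 to 3.93, and all 9 were still called.

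At day 7 in HOM muscle the 9 markers were again all called higher (adjusted p from 9.68e-07 to 0.000105; 20.6% of all genes), with no overlap of libraries for 9 of 9 (16.6% of all genes). The membrane gene Ms4a7 read 0.52, 0.546, 0.282 and 0.279 with saline and 7.66, 13.7, 4.29, 12.4 and 7.68 with AAV. The lowest AAV library was above the highest saline library by several-fold. Its mean rose 22.5-fold and its log2 change was 2.76 ± 0.42. The chemokine receptor gene Cx3cr1 read 0.561, 0.309, 1.25 and 0.737 with saline and 6.0, 6.75, 5.42, 7.59 and 5.42 with AAV, a change of 2.10 ± 0.37. Its AAV libraries were close together, unlike those of most markers at day 21. Mrc1 had the smallest change again, 1.25 ± 0.25, from 12.9 ± 2.69 (SD, n = 4) to 31.65 ± 4.81 (SD, n = 5). The others were 1.60 ± 0.30 for Csf1r, 2.22 ± 0.34 for Adgre1, 2.07 ± 0.38 for Fcgr1, 2.53 ± 0.42 for Mpeg1, 2.78 ± 0.44 for Ctss and 2.09 ± 0.37 for Lyz2, with a median over the 9 of 2.10 beside -0.01 for all genes.

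At day 21 HOM muscle held the highest mean of 8 of the 9 markers, Mrc1 being the exception, and its libraries were far apart. All 9 were called higher (adjusted p from 1.11e-12 to 3.44e-06; 29.7% of all genes) without overlap (21.5% of all genes). Ctss read 3.48, 3.89, 3.76 and 2.24 with saline and 538, 121, 172 and 36.8 with AAV. Each AAV library was far above the saline range, but replicate 1 was 14.6-fold above replicate 4. Its log2 change was 5.07 ± 0.46 and its mean rose 64.9-fold. Mpeg1, whose product perforates engulfed bacteria, read 5.74, 4.38, 2.76 and 2.03 with saline and 442, 109.89, 155 and 40.1 with AAV, a change of 4.89 ± 0.44. Adgre1 read 2.06, 2.68, 1.31 and 1.16 with saline and 120.3, 25.6, 41.8 and 12.2 with AAV, a change of 3.75 ± 0.36. Replicate 1 was the highest and replicate 4 the lowest for each of these genes, and the ratio of highest to lowest library was 6 to 15.2 over the 9 markers. The corresponding ratio in HOM AAV at day 7 was 1.4 to 4.79. Mrc1 read 12.98, 13.99, 11.6 and 7.26 with saline and 85.1, 33.5, 33.6 and 14.2 with AAV, so its lowest AAV library was only just above its highest saline library, and its change was 1.54 ± 0.27. The remaining log2 changes were 2.46 ± 0.31 for Csf1r, 3.26 ± 0.39 for Cx3cr1, 3.36 ± 0.39 for Lyz2, 3.58 ± 0.44 for Ms4a7 and 3.11 ± 0.40 for Fcgr1. Leaving out replicate 1 gave changes from 1.11 to 4.43 and leaving out replicate 4 from 1.95 to 5.71, with 9 of 9 called either way. Replicate 1, the highest for the markers, had the lowest transgene level of the group, 127.4 against 465.2, 1103 and 866.2. Libraries that stood apart in other groups did not all run this way, as given below.

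HET muscle at day 7 had higher markers with AAV as well. Here 8 of 9 markers were called higher (19.6% of all genes), and 8 of 9 had no overlap (20.5% of all genes). Csf1r, the growth factor receptor gene, read 13.7, 7.78, 9.84 and 10.8 with saline and 27.5, 44.9, 36.05 and 35.9 with AAV. Its groups were clearly apart, and its change was 1.69 ± 0.31 (limma, adjusted p = 2.56e-05). Lyz2 read 23.8, 22.35, 30.2 and 43.8 with saline and 84.02, 158, 117 and 130.4 with AAV, a change of 2.00 ± 0.39. Adgre1 changed by 1.93 ± 0.36, Mpeg1 by 2.11 ± 0.44, Ctss by 2.25 ± 0.46 and Ms4a7 by 1.93 ± 0.44, the last of which lost its call with limma voom on recovered reads (adjusted p = 0.0897). Mrc1 was the marker whose libraries overlapped, at 17.9, 9.88, 18.3 and 13.6 with saline and 18.2, 28.5, 24.9 and 28.5 with AAV. AAV replicate 1 lay inside the saline range. Its change was 0.72 ± 0.27 (adjusted p = 0.0272), and it was no longer called without AAV replicate 2 (0.66, adjusted p = 0.077) or replicate 4 (0.0749), or without saline replicate 2 (0.125) or replicate 4 (0.0577). Cx3cr1 changed by 1.03 ± 0.39 (adjusted p = 0.0286) and lost its call with a pseudocount of 4 (adjusted p = 0.196) and with quantile normalization (0.0769), with limma voom on recovered reads (0.192) and without AAV replicate 2 (0.108), AAV replicate 4 (0.0704) or saline replicate 1 (0.0679). Fcgr1 read 0.463, 0.236, 0.644 and 0.41 with saline and 0.77, 2.34, 0.767 and 3.96 with AAV. All 4 AAV libraries were above the saline range, but 2 of them only slightly. Its change of 0.91 ± 0.40 missed the threshold (adjusted p = 0.0656), while edgeR and DESeq2 on the recovered reads called it (adjusted p = 0.00893 and 0.00457). With same-numbered libraries paired as a replicate block, limma called all 9 markers, Fcgr1 with an adjusted p of 0.0177. The median of the 9 was 1.93, beside -0.01 for all genes.

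In WT muscle, whose titin carries no protease site, the markers differed by day. At day 3, 0 of 9 were called, as were 0% of all genes with limma and with edgeR, and 8 genes (7 higher and 1 lower) with DESeq2, 0 of them markers. At an unadjusted p under 0.05 limma gave 5 of the 9 and 430 of 13017 genes. The AAV libraries were nevertheless above all saline libraries for 6 of 9 markers, against 1.87% of all genes. Ctss read 3.24, 4.54 and 4.59 with saline and 10.98, 7.39, 34.95, 14.04 and 10 with AAV. Replicate 3 was far above the other 4 AAV libraries, which themselves were all above the saline range. Its change was 1.49 ± 0.48 with an unadjusted p of 0.00299 and an adjusted p of 1, and 1.16 without replicate 3. Adgre1 read 1.90, 2.49 and 1.58 with saline and 5.65, 4.46, 10.6, 4.72 and 5.69 with AAV, a change of 1.23 ± 0.37 (unadjusted p = 0.00171, adjusted p = 1). Fcgr1 read 0.455, 0.498 and 0.349 against 0.617, 0.201, 1.94, 0.968 and 0.426, which overlap, and changed by 0.28 ± 0.41. Without replicate 3 the 9 changes ran from 0.09 to 1.16.

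At day 7 in WT muscle the 9 log2 changes lay between -0.33 and 0.29, with a median of 0.01. Limma called 0 of 9 markers and 0% of all genes, with 0 markers and 210 genes at an unadjusted p under 0.05. EdgeR called 0 genes and DESeq2 7 (4 higher and 3 lower), 0 of them markers. Ctss read 5.55, 2.72 and 5.35 with saline and 8.48, 4.31, 4.47 and 3.12 with AAV, so the groups overlapped. The 95% interval of its change was -0.89 to 1.12, so a change of up to about that size in either direction was not excluded. Replicate 1 was the highest AAV library for each marker, and without it the 9 changes ran from -0.71 to 0.28, with 0 called. Fcgr1 was the only marker with all AAV libraries above all saline libraries (1 of 9, against 1.87% of all genes), on 6 to 9 reads against 0 to 5 reads. The transgene was well present in this group, at 240 ± 68.3 (SD, n = 4).

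At day 21 in WT muscle all 9 markers were called higher (limma, adjusted p from 1.68e-10 to 0.000794; 19.7% of all genes), with no overlap for 9 of 9 (16.4% of all genes). Ctss read 4.42, 2.70, 2.23 and 3.37 with saline and 84.98, 42.01, 194 and 156 with AAV, a change of 4.65 ± 0.46. All AAV libraries were at least several-fold above the saline range, replicate 2 being the lowest. Mpeg1 read 3.41, 3.31, 4.49 and 3.98 with saline and 64.2, 41.6, 163 and 125 with AAV, a change of 4.19 ± 0.44. Adgre1 read 2.32, 2.14, 1.37 and 2.57 with saline and 19.6, 14.75, 35.85 and 34.2 with AAV, a change of 3.06 ± 0.36. The same pair, replicates 3 and 4, was high for these 3 genes. Mrc1 read 11.8, 12.4, 10.6 and 11.4 with saline and 26.8, 20.7, 32.5 and 26.2 with AAV, and had the smallest change, 1.12 ± 0.27. The other changes were 2.00 ± 0.31 for Csf1r, 2.64 ± 0.39 for Cx3cr1, 2.75 ± 0.39 for Lyz2, 3.01 ± 0.44 for Ms4a7 and 2.39 ± 0.40 for Fcgr1, with a median of 2.75 beside -0.01 for all genes. Without replicate 2 the 9 changes ran from 1.23 to 5.07, and all were called. Replicate 3, the highest for 7 of the 9 markers, had the lowest transgene level of the group, 110.9 against 1267, 999.2 and 647.6. The part of transgene level in the marker levels was not tested.

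**Figure D3:**
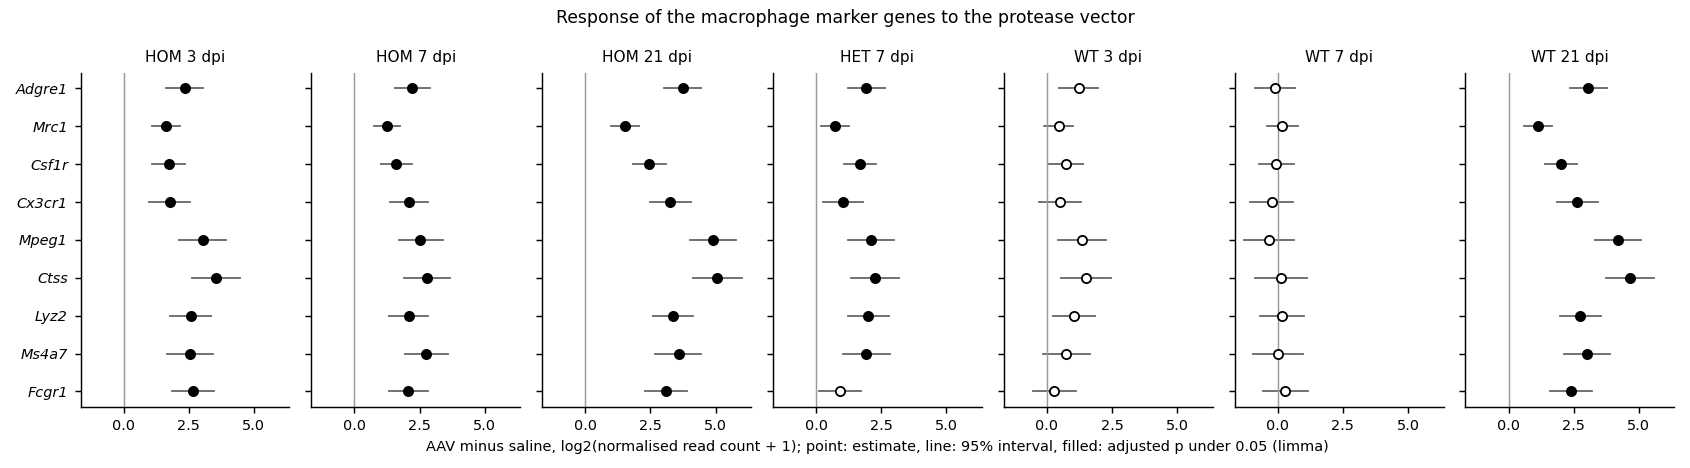
AAV minus saline change of each marker on the log2(normalised read count + 1) scale in the 7 comparisons, with 95% intervals. Filled points passed an adjusted p of 0.05 in limma: all 9 in HOM at each day and in WT at day 21, 8 in HET at day 7, and 0 in WT at day 3 and at day 7.

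The comparison of responses asks whether the markers moved more where titin could be severed, taking the AAV minus saline change in one genotype minus that in another. At day 3 the HOM response exceeded the WT response for Fcgr1 (difference 2.40, 95% interval 1.24 to 3.56, adjusted p = 0.00593), Ctss (2.05, 0.71 to 3.38, adjusted p = 0.0402) and Mrc1 (1.19, 0.42 to 1.97, adjusted p = 0.0392). These were 3 of 9 markers, against 5.39% of all genes. All 9 differences were positive, from 0.99 to 2.40, and the 6 that missed had adjusted p from 0.0576 (Ms4a7) to 0.154 (Adgre1). The count turned on single libraries: 7 markers were called without WT AAV replicate 3, 6 without HOM AAV replicate 4, and 1 (Fcgr1) without any 1 of the other WT libraries or of 4 of the HOM libraries. At day 7 all 9 markers responded more in HOM than in WT muscle (adjusted p from 0.00134 to 0.0422; 9.29% of all genes). The difference was largest for Mpeg1 (2.86, 95% interval 1.59 to 4.14) and Ms4a7 (2.76, 1.49 to 4.03). It was smallest for Mrc1 (1.07, 0.30 to 1.85). The calls of Mrc1 and Fcgr1 were lost with edgeR, and limma voom on recovered reads called 3 of 9. Leaving out 1 library left 7 to 9 called, Mrc1 being lost most often. At day 21, 0 of 9 were called (1.84% of all genes), with 0 at an unadjusted p under 0.05 and 0 by edgeR and DESeq2. The differences ran from 0.42 to 0.72, and their intervals reached from -0.90 at the lowest (Ctss) to 1.96 at the highest (Mpeg1), so neither equal responses nor a difference of that size was excluded. Still 0 were called without HOM AAV replicate 1 (-0.22 to 0.17), without HOM AAV replicate 4 (0.83 to 1.26) or without WT AAV replicate 2 (-0.00 to 0.46).

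For HET against WT muscle at day 7, 6 of 9 markers responded more in HET (10.3% of all genes). They were Adgre1 (difference 2.03, 95% interval 0.97 to 3.08), Csf1r (1.74, 0.82 to 2.66), Mpeg1 (2.44, 1.13 to 3.75), Ctss (2.14, 0.77 to 3.5), Lyz2 (1.84, 0.68 to 3.00) and Ms4a7 (1.93, 0.63 to 3.23). Mrc1 (0.55), Cx3cr1 (1.28) and Fcgr1 (0.62) missed the threshold in limma, with adjusted p of 0.344, 0.104 and 0.496. Without WT saline replicate 1 the count was 3. This comparison and that of HOM with WT at day 7 share the same WT libraries. For HOM against HET muscle at day 7, 0 of 9 were called (0.699% of all genes) by limma, edgeR or DESeq2, and 1 had an unadjusted p under 0.05 (Fcgr1, 0.04). Csf1r, Lyz2 and Adgre1 differed little, by -0.09 (-0.95 to 0.78), 0.09 (-1.0 to 1.17) and 0.30 (-0.69 to 1.28). The 3 genes with the largest differences were Fcgr1 at 1.17 (0.06 to 2.28), Cx3cr1 at 1.06 (-0.01 to 2.13) and Ms4a7 at 0.83 (-0.39 to 2.05).

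The transgene itself differed between the genotypes compared, and its level stands beside these differences. At day 7 it was 22.4 ± 5.39 (SD, n = 5) in HOM, 86.6 ± 24.1 (n = 4) in HET and 240 ± 68.3 (n = 4) in WT muscle, the reverse of the order of most markers. HOM was lower than WT by 3.35 on the log2 scale (exact permutation test, two-sided, adjusted p = 0.0198 over 5 tests) and lower than HET by 1.89 (0.0198, same test), and HET lower than WT by 1.46 (0.0476, same test). At day 3 the means were 49.4 ± 21.8 (n = 4) in HOM and 17.2 ± 18.1 (n = 5) in WT, a difference of 1.87 that missed the threshold (exact permutation, adjusted p = 0.0595). At day 21 they were 640 ± 431 in HOM and 756 ± 499 in WT (n = 4 each, exact permutation, adjusted p = 0.771).

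**Figure D4:**
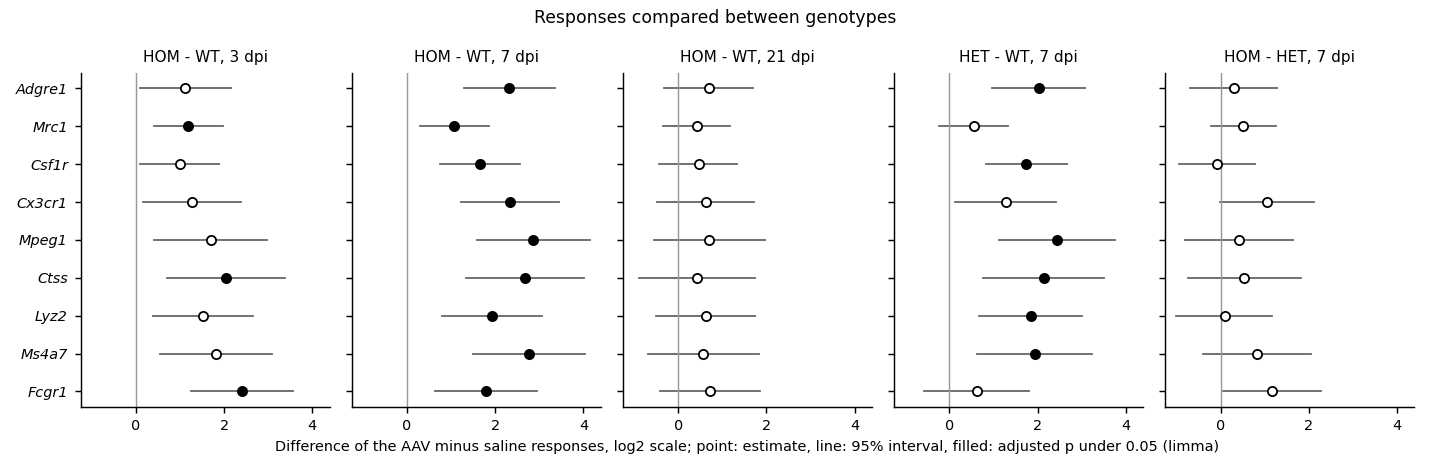
Difference of the AAV minus saline responses between genotypes for each marker on the log2 scale, with 95% intervals, filled where the adjusted p in limma was under 0.05. At day 7 all 9 HOM minus WT points are filled and right of 0, and at day 21 none is filled.

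Between days, the HOM response at day 7 did not differ detectably from that at day 3: 0 of 9 were called (2.8% of all genes called higher), 0 had an unadjusted p under 0.05, and edgeR and DESeq2 called 0. The differences ran from -0.75 for Ctss to 0.33 for Cx3cr1. From day 7 to day 21 3 of 9 differences in the HOM response passed the threshold against 7.54% of all genes, those of Mpeg1 (2.35, adjusted p = 0.00721), Ctss (2.28, 0.0121) and Adgre1 (1.52, 0.0304). These calls did not hold in all fits: 0 were called with a replicate block or with limma voom, and 1 in a fit of only the groups compared. The count was 1 without HOM AAV day 21 replicate 1 and 7 without replicate 4. For the WT response, 0 of 9 were called between day 3 and day 7 (0% of all genes), with 2 (Adgre1 and Mpeg1) at an unadjusted p under 0.05 and 0 by edgeR and DESeq2. Between day 7 and day 21 it grew for 8 of 9 (10.5% of all genes), by 4.54 for Ctss and 4.52 for Mpeg1 at the top. Mrc1, with 0.94, missed the threshold (adjusted p = 0.0837). The count was 9 without WT AAV day 21 replicate 2, 8 without WT AAV day 7 replicate 1 and 5 with limma voom.

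Ordered by mean, the 14 groups had the same upper part for most markers. HOM AAV at day 21 was first for 8 of 9 and HOM AAV at day 3 for Mrc1. The 6 highest means of every marker were those of HOM AAV at the 3 days, WT AAV at day 21, HET AAV at day 7 and, in the sixth place, WT AAV at day 3. The library ranges of neighbouring groups in these orders overlapped with 1 exception, WT AAV day 3 against HOM saline day 3 for Ctss. WT AAV at day 7 stood among the saline groups for each marker.

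Ratios between markers were compared to see whether they rose by the same factor, and no difference passed the adjusted test. Within each library the log2 ratio of each other marker to Adgre1, with 1 added to both values, was compared between AAV and saline. The scaling of the library cancels in such a ratio only where both values are well above 1. Adgre1 itself had saline group means of 1.80 to 4.02, so the added 1 bears on every saline ratio. The ratio of Mrc1 to Adgre1 was lower with AAV by 2.21 in HOM at day 21, 1.94 in WT at day 21, 1.20 in HET at day 7 and 0.98 in HOM at day 7. That of Csf1r was lower by 1.28 in HOM and 1.05 in WT at day 21. That of Ctss was higher by 1.32 and 1.60 in the same groups, and that of Mpeg1 by 1.14 and 1.13. The ratio of Lyz2 stayed nearer to that of Adgre1, with differences from -0.38 to 0.26 over the 7 comparisons. None of the 56 exact permutation tests (two-sided) passed the Benjamini-Hochberg adjustment, whose lowest adjusted p was 0.0842. The smallest raw p that 4 against 4 libraries allow is 0.0286. A ratio at that p could pass only if many of the 56 did, so the lack of calls does not show equal factors. At an unadjusted p under 0.05 there were 21 of 56, among them 5 of 7 for Mrc1, 5 of 7 for Csf1r, 4 of 7 for Ctss and 0 of 7 for Lyz2. For Cx3cr1, Ms4a7 and Fcgr1 the pseudocount of 1 exceeds most saline values, raises the saline ratio and so lowers the change. That of Fcgr1 in HOM at day 21 was -0.64, although its mean rose 38.1-fold against 27.7-fold for Adgre1, so the changes of these 3 ratios are not read for direction.

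**Figure D5:**
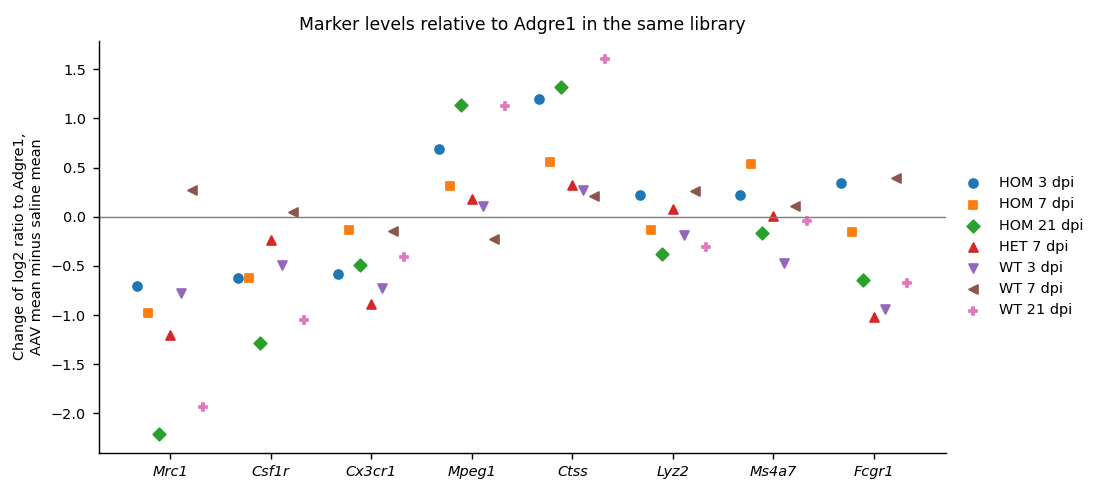
Change of the log2 ratio of each other marker to Adgre1 in the same library, as AAV mean minus saline mean, in the 7 comparisons. Mrc1 and Csf1r lie below 0 in all comparisons but WT at day 7, and Ctss and Mpeg1 above 0 in all but WT at day 7 for Mpeg1; no point passed the adjusted test.

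Other genes of the macrophage programme were counted from lists grouped by function. Of 12 other pan-macrophage markers, 11 were called higher in HOM at day 3, 11 at day 7, 12 at day 21, 11 in WT at day 21 and 11 in HET at day 7, with medians of 2.12, 1.91, 3.27, 2.80 and 1.34. Over all genes, 17.4%, 20.6%, 29.7%, 19.7% and 19.6% were called higher in these 5 comparisons. Each list count of genes called higher below stands against the same shares. In HOM at day 3 the smallest p-values were those of the integrin gene Itgam (2.80 ± 0.36), the lysosomal glycoprotein gene Cd68 (3.10 ± 0.41) and the lipid receptor gene Trem2 (2.83 ± 0.40). In WT at day 21 they were those of the complement genes C1qa (3.42 ± 0.37) and C1qc (3.26 ± 0.36) and of Laptm5 (3.23 ± 0.36). In WT at day 3 and day 7, 0 of the 12 were called by limma. Their medians there, 0.70 and 0.16, stood beside 0.75 and 0.01 for the 9 markers.

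Ligands and chemokine receptors of the lineage moved in the same comparisons. Of 10 tested, 8 were higher in HOM at day 3, 8 at day 7, 9 at day 21, 7 in WT at day 21 and 4 in HET, against 17.4%, 20.6%, 29.7%, 19.7% and 19.6% of all genes. The monocyte attractants Ccl2 (3.28 ± 0.27) and Ccl7 (2.59 ± 0.31) led in HOM at day 3 with the receptor gene Ccr1 (2.01 ± 0.31). Ccl8, another monocyte attractant, led at day 21 in both HOM (4.64 ± 0.38) and WT (3.97 ± 0.38). In HET muscle Cx3cl1, the ligand of the Cx3cr1 product, led with 2.07 ± 0.37 (adjusted p = 1.39e-05). Csf1, a ligand of the Csf1r product named here after its values were seen, was called higher in HOM at day 3 and day 21 and in WT at day 21. Of 10 myeloid transcription factors, 4 were higher in HOM at day 3, 4 at day 7 and 6 at day 21, with Nr1h3 lower at day 7 and day 21, against 17.4%, 20.6% and 29.7% of all genes called higher. Their summed level was 244 to 325 in HOM saline and 271 to 352 in HOM AAV at day 3, which overlap. Runx1 (2.69 ± 0.31) and Spi1 (1.71 ± 0.32), whose products drive myeloid genes, were among the 3 with the smallest p in HOM at day 3, and Irf8 (3.10 ± 0.27) led at day 21.

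Genes that act with the Fcgr1 and Ctss products were counted in the same way. Of 10 Fc receptor and signalling genes, 9, 9 and 10 were higher in HOM at day 3, 7 and 21, 10 in WT at day 21 and 6 in HET at day 7. Fcgr3 (1.89 ± 0.30), the shared signalling chain Fcer1g (2.40 ± 0.37) and the adaptor Tyrobp (2.38 ± 0.37) had the smallest p in HOM at day 3. Of 11 lysosomal proteases and inhibitors, 9 were higher in HOM at each day, 7 in WT at day 21 and 5 in HET, but with medians of 0.84, 0.60, 1.20, 0.82 and 0.21, below those of Ctss itself. Ctsk (1.84 ± 0.16), a protease known from bone-resorbing cells and fibroblasts, led in HOM at day 7 with Lgmn (1.72 ± 0.25).

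Monocyte and resident macrophage markers were counted separately. Of 6 monocyte genes tested, 5, 5 and 6 were called higher in HOM at day 3, 7 and 21, 5 in WT at day 21 and 3 in HET, led in most by the chemokine receptor gene Ccr2 (2.67 ± 0.37, 2.15 ± 0.35 and 3.36 ± 0.37 in HOM, 3.03 ± 0.37 in WT). Of 11 resident markers tested, 7, 7 and 8 were higher in HOM, 6 in HET, and 3 in WT at day 21 (Folr2, Clec10a and Mgl2) with Gas6 lower (-0.55 ± 0.16). The 3 of 11 in WT are near the 19.7% of all genes called higher there. The medians of the resident list at day 21 were 0.90 in HOM and 0.54 in WT, beside 2.55 and 1.63 for the monocyte list. The summed resident level was 102 to 216 normalised reads in WT AAV at day 21 and 127 to 148 in WT saline, and it was at least 274 in HOM AAV against at most 216 in HOM saline.

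Markers of other cells moved with the 9 genes in several comparisons, and their part in the marker levels was not tested. Of 8 T and natural killer cell genes tested, 0 were called in HOM at day 3, 5 at day 7 and 8 at day 21, 8 in WT at day 21 and 0 in HET. The filter on low values is a mean over all libraries, and the full list of 14 summed to at most 3.29 in any saline library. The tested genes therefore passed it only through AAV groups in which they were high, so their counts at day 21 are in part set by the filter. The summed level of the full list of 14 was 1.77 to 3.18 in HOM AAV at day 3 and 2.06 to 5.37 in HET AAV, near the saline range of 1.19 to 2.15 and 1.31 to 3.29, against 46.4 to 169 in HOM AAV and 18.4 to 94.7 in WT AAV at day 21. In those 2 comparisons, HOM at day 3 and HET at day 7, the macrophage markers were thus higher while the T and natural killer cell genes were not called. The summed level of 8 B and plasma cell genes was 30.6 to 131 in WT AAV at day 21 against 1.51 to 2.82 with saline, and 18 to 137 in HOM AAV against 1.33 to 3.24. Of the 2 that could be tested, Jchain and Cd22, both were called higher in these comparisons, Cd22 alone in HOM at day 3 and day 7, and 0 in HET. The list of 8 summed to at most 3.24 in any saline library, so the same limit of the filter bears on these 2 genes. Of 7 fibroblast genes, 5 were higher in HOM at day 7 and 21, in WT at day 21 and in HET, and 2 were higher and 1 lower in HOM at day 3. Their summed level was 1850 to 3440 in HOM AAV at day 7 against 825 to 967 with saline, and 1880 to 3120 in HET AAV against 592 to 824. The neutrophil gene Csf3r was higher in HOM at day 3 (1.77 ± 0.38), 7 and 21. Only 2 of the 10 neutrophil genes could be tested, and the other tested gene is not described here. S100a8, S100a9, Cxcr2, Ly6g, Ngp, Camp and Ltf were absent from the deposited table. The 3 neutrophil genes present summed to 1.67 to 7.65 in HOM AAV at day 3 against 1.1 to 2.31 with saline, which overlap. Proliferation genes were higher for 7 of 7 in HOM at day 3 and day 21 and in WT at day 21, and for 6 of 7 in HOM and HET at day 7, with Mki67 at 2.42 ± 0.37 in HOM at day 3. Endothelial genes were called lower for 3, 5 and 6 of 6 in HOM at day 3, 7 and 21, 6 in WT at day 21 and 5 in HET. The shares of all genes given above are of genes called higher and do not serve these counts. In HOM at day 3, 2245 of 13017 genes were called lower, and the shares called lower elsewhere are not given here. The summed level of 8 dendritic cell genes at day 21 was 19.2 to 49.7 in HOM AAV against 6.71 to 10.3 with saline. In WT AAV it was 16.7 to 31.1 against 8.82 to 11.9. The summed level of the 9 fast fibre genes was 56400 to 111274 in HOM AAV at day 21 against 145267 to 159497 with saline.

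Across the 56 libraries the 9 markers rose and fell together: Pearson's r of their log2 values was 0.79 to 0.99 over the 36 pairs (median 0.94). After removing group means it was 0.58 to 0.93 (median 0.83), so libraries of the same group also differed in the markers as a block. These r values describe libraries that share depth and scaling, and no p is given. The genes most like the mean of the 9 (r = 0.98 each) were Laptm5, Sirpa, Tyrobp, Ms4a6c, Clec4a1, C1qb, Pld4, Fermt3, Lcp1 and Cybb. Single markers had partly different neighbours. Ctss and Mpeg1 were each other's near neighbours (r = 0.99), Csf1r was closest to Lyz2 (0.98), and Lyz2 to Ccr2 (0.98). Mrc1 was closest to Itgam at 0.95, the lowest first-neighbour value among the 9, followed by Lyz2 (0.93) and Lilr4b (0.92). Cx3cr1 was closest to Fyb, Aif1 and Tnfrsf1b (0.96 each), Ms4a7 to Unc93b1, Apoe and Cd300c2 (0.97 each), Fcgr1 to Otulinl, Tmem106a and Ms4a6d (0.96 each), and Adgre1 to Mpeg1, Laptm5 and Clec4a1 (0.98 each).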

How the data were processed

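RNA of 56 tibialis anterior samples in 14 groups was measured by directional sequencing, per the labels' protocols. FastQC, Bowtie, RSEM and limma and the builds GRCm38 and mm10 are named, per the submitters' processing notes, without roles. The deposited table holds 1 normalised signal (read count) value per gene and sample; the authors' normalisation is not given in those notes or in the labels. Above a small constant for 0 reads, values were whole multiples of what 1 read is worth, so whole reads were recovered (99.999% within 0.02 reads; 6.9 to 27.18 M reads per library).

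Samples were grouped by the labels' genotype, treatment and day. The values being normalised, the main test was limma 3.58.1 (R 4.3.3, trend) on log2(value + 1) in 1 fit of all 14 groups, without a replicate block. The filter kept genes averaging 1 CPM or more of the column total, the transgene left out, and p-values were Benjamini-Hochberg adjusted over 13017 genes in each of 25 comparisons; called means an adjusted p under 0.05. Same-numbered saline and AAV libraries deviated together (every correlation over 0.1) in HET at day 7 (0.128 to 0.178) and HOM at day 21 (0.165 to 0.233), a pairing that comes from the values and not from the labels. Ratios and the transgene were tested by exact permutation. Alternatives were edgeR 4.0.16, DESeq2 1.42.0 and limma voom on recovered reads, other pseudocounts (0.25 and 4), filters and scalings, a fit of only the groups compared, a replicate block, and leaving out each library. The fit was tested on simulated data. Gene positions and exon lengths came from GENCODE M21.

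The markers, gene lists and tests were chosen with earlier results of these data known. Named genes are the 9 markers, at most 3 genes per list and comparison by smallest p, and the genes most like the markers by Pearson's r.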

Additional observations from a re-analysis of the deposited data

Results flagged for a closer look

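Within groups of 4 or 5 libraries, 8 of 108 marker-by-group sets had an end library far from the others for their range by Dixon's criterion, and chance gives about 1 in 20. WT AAV day 3 replicate 3 was high for Adgre1 (10.6) and Ms4a7 (6.22), and replicate 2 of that group was low for Mrc1 (17.2). HOM AAV day 3 replicate 4 was low for Csf1r (33.4), and WT AAV day 7 replicate 1 was high for Cx3cr1 (1). Among saline libraries, HOM day 7 replicate 2 was low for Mrc1 (8.86) and Mpeg1 (4.87), and HOM day 3 replicate 2 was low for Ctss (3.9).

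The response to AAV differed between genotypes or days by the test of the difference itself for 29 marker-by-comparison pairs (log2 scale, limma, adjusted p under 0.05). HOM minus WT at day 3 gave 1.19 for Mrc1, 2.05 for Ctss and 2.40 for Fcgr1. HOM minus WT at day 7 gave 2.32 for Adgre1, 1.07 for Mrc1, 1.65 for Csf1r, 2.34 for Cx3cr1, 2.86 for Mpeg1, 2.67 for Ctss, 1.93 for Lyz2, 2.76 for Ms4a7 and 1.78 for Fcgr1. HET minus WT at day 7 gave 2.03 for Adgre1, 1.74 for Csf1r, 2.44 for Mpeg1, 2.14 for Ctss, 1.84 for Lyz2 and 1.93 for Ms4a7. Day 21 minus day 7 gave, in HOM, 1.52 for Adgre1, 2.35 for Mpeg1 and 2.28 for Ctss. In WT it gave 3.16 for Adgre1, 2.05 for Csf1r, 2.88 for Cx3cr1, 4.52 for Mpeg1, 4.54 for Ctss, 2.59 for Lyz2, 3.01 for Ms4a7 and 2.10 for Fcgr1.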

How the results depend on the processing

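The counts of markers called in the 7 AAV minus saline comparisons and the 9 saline comparisons stayed within 1.5 times under every alternative run. Differences of responses depended more on the setting, and the cause was not tested. For HOM minus WT at day 3 (3 markers) the count was 0 with limma voom, and leaving out 1 library gave 1 to 7. For HOM minus WT at day 7 (9 markers) voom gave 3. For HET minus WT at day 7 (6 markers) voom gave 2, and leaving out 1 library gave 3 to 6. For HOM minus HET at day 7 (0 markers) a fit of only the groups compared gave 1, Cx3cr1. For HOM at day 21 minus day 7 (3 markers) that fit gave 1 and voom 0, and leaving out 1 library gave 1 to 7. For WT at day 21 minus day 7 (8 markers) voom gave 5. With quantile normalization the fast fibre gene Tnnt3, otherwise called lower, changed by 0.00 in HOM at day 3, 0.01 in HOM at day 7 and 0.09 in WT at day 21. Depth limits Cx3cr1, Ms4a7 and Fcgr1, which had at most 32 reads in any saline library.

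Of 26 same-numbered pairs of saline and AAV libraries, 12 correlated over 0.1, with a range of -0.241 to 0.311. In HET at day 7 and HOM at day 21 all 4 pairs did, and in the other genotypes and days not all did. With the replicate block, all 9 markers were called in both of those AAV minus saline comparisons, where Fcgr1 in HET was the only added call. Elsewhere the block gave 1 for HOM minus WT at day 3, 1 for HOM minus HET at day 7 and 0 for HOM at day 21 minus day 7, and the other counts stayed within 1.5 times.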
